A study of Mus musculus with 9 samples.

Results

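The baseline transcriptome of the mouse lumbar sensory ganglion was described from the 3 vehicle libraries of a set of 9. The members were chosen by the label vehicle alone, and no contrast with the drug groups was made. Each vehicle library held RNA pooled from the L3, L4 and L5 dorsal root ganglia of 4 male wild-type C57BL/6 mice aged 8 to 10 weeks, taken on the side of the paws that had received vehicle. The other 6 libraries came from mice given cisplatin or oxaliplatin, each to a cumulative dose of 40 micrograms, and serve here only for scaling and as a range for library properties. The composition of the vehicle is not given in the sources used here. A library averages 4 animals and every cell of the tissue, so variation between single animals and between single cells was not measured, and no naive ganglion stands beside these samples.

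The dorsal root ganglion houses the neurons that carry touch, position, temperature, itch and pain from limb and trunk to the spinal cord. Each neuron body is wrapped by satellite glia, and the axons are ensheathed by Schwann cells, which lay down myelin around the thick axons and bundle the thin ones. Nociceptors are the neurons that respond to damaging stimuli, and they differ from touch and position-sense neurons in their peptides, growth factor receptors and ion channels. Vessels, connective tissue, a capsule continuous with the meninges and resident macrophages make up the rest.

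Levels are given as CPM, which is the reads of a gene relative to all reads assigned to genes, after scaling between libraries (trimmed mean of M values, TMM). CPM compares libraries for the same gene. Genes are compared with each other only as CPM per kilobase, which divides CPM by the length of all annotated exons of the gene. A gene with 3 counts or fewer in a library is treated as at the floor, which was 0.113, 0.188 and 0.0975 CPM in libraries 1, 2 and 3. Spreads are SDs over the 3 libraries.

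The 3 libraries were not alike in composition. Reads assigned to genes numbered 27803684, 22819185 and 32022672. Reads that aligned to multiple places made up 29.6%, 51.0% and 25.9% of recorded reads, against 29.2 to 33.9% in the 6 drug libraries. Library 2 stood above all others in this share (95% Clopper-Pearson interval 51.0 to 51.0%, counting error only). Of uniquely aligned reads, 26.8%, 47.7% and 26.2% lay outside annotated genes, against 16.6 to 19.1% in the drug libraries, so all 3 vehicle libraries were above that range and library 2 by the most. The 10 most abundant genes took 7.81%, 32.9% and 7.67% of gene reads.

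A small set of ribosomal-RNA-like and mitochondrial ribosomal genes set library 2 apart. Among 14718 genes at a mean of 1 CPM or more, 39 (0.265%) were at least 2-fold higher in library 2 than in both other libraries and 9 (0.0611%) at least 2-fold lower. These counts set 1 library beside 2 and carry no test. The filter takes the mean over all 3 libraries, so low genes can pass it through library 2 alone, as Tnnt3 did (0.750, 2.26 and 0.878 CPM). This holds for the gene lists below as well. The balance of higher and lower genes depends on the filter, and with no filter the lower ones were more numerous, as given in the section on processing. That count kept genes with no reads in library 2 but left out those with none in library 1 or 3. It thus favours lower genes by construction, and library 2 also had the fewest gene reads. Of the 39, 8 reached 1000 CPM in library 2, and together they held 31.1% of its gene reads against 2.37% and 2.75% in libraries 1 and 3. Library 1 by the same rule had 1 gene above (0.00679%) and 14 below (0.0951%), and library 3 had 4 above (0.0272%) and 20 below (0.136%).

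Gm26924, a predicted gene that had no match in the annotation used, was at 426 CPM in library 1, 211754 CPM in library 2 and 597 CPM in library 3. It alone took 14.8% of the gene reads of library 2. Mitochondrial 16S ribosomal RNA (mt-Rnr2) was at 20678, 92320 and 22766 CPM, and 12S ribosomal RNA (mt-Rnr1) at 1783, 30854 and 2385 CPM. Lars2, a nuclear gene for the mitochondrial leucyl-tRNA synthetase, was at 60.7, 37512 and 57.7 CPM. In each of these genes libraries 1 and 3 lay close together and library 2 far above them. The remaining genes of this group were mmu-mir-6236 (80.5, 30384 and 233 CPM), Gm23935 (1652, 28871 and 2474 CPM), Gm15564 (14.8, 7856 and 5.79 CPM) and n-R5-8s1, a 5.8S ribosomal RNA gene (28.0, 5298 and 57.5 CPM). The annotated exons of Lars2 and Gm15564 share a run of 52 bases on the same strand. Not every gene listed as rRNA-like rose in this way. Gm26917 was at 922, 1613 and 956 CPM, and AY036118 was lowest in library 2, at 251, 161 and 172 CPM.

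The sequences below are shown because Gm23935 and the miR-6236 gene were among the genes far higher in library 2, and because identical gene models did not receive like counts. These 2 genes held 2.02% and 2.13% of the gene reads of library 2, a minor part of its departure. Gm23935 (chr16:11144125-11144181, plus strand), Gm24245 (chr4:139338304-139338360, plus strand) and Gm24270 (chr9:56223715-56223771, minus strand), all in GRCm38 with GENCODE M21 models, hold the same 57 bases on their own strands. The 2 mature microRNAs are from RefSeq (GRCm38.p6), at chr9:110281353-110281371 and chr5:114851973-114851998 on the plus strand, with the seed, bases 2 to 8, in capitals.
Gm23935, Gm24245 and Gm24270: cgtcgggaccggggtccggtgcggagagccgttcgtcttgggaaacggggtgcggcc
mmu-miR-6236: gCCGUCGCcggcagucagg
mmu-miR-6240: cCAAAGCAucgcgaaggcccacggcg

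Gm23935 received 44076, 460896 and 76107 counts in libraries 1 to 3. Gm24245 received 12, 167 and 15 counts, and Gm24270 received 6, 69 and 14 counts. The 3 identical models thus differed by orders of magnitude within every library while sharing the direction of library 2. The miR-6236 gene received 2148, 485046 and 7176 counts, and the miR-6240 gene 2, 22 and 2 counts. The 2 seeds differ, and the levels of these small genes in a library of total RNA do not measure mature microRNA.

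**Figure D1:**
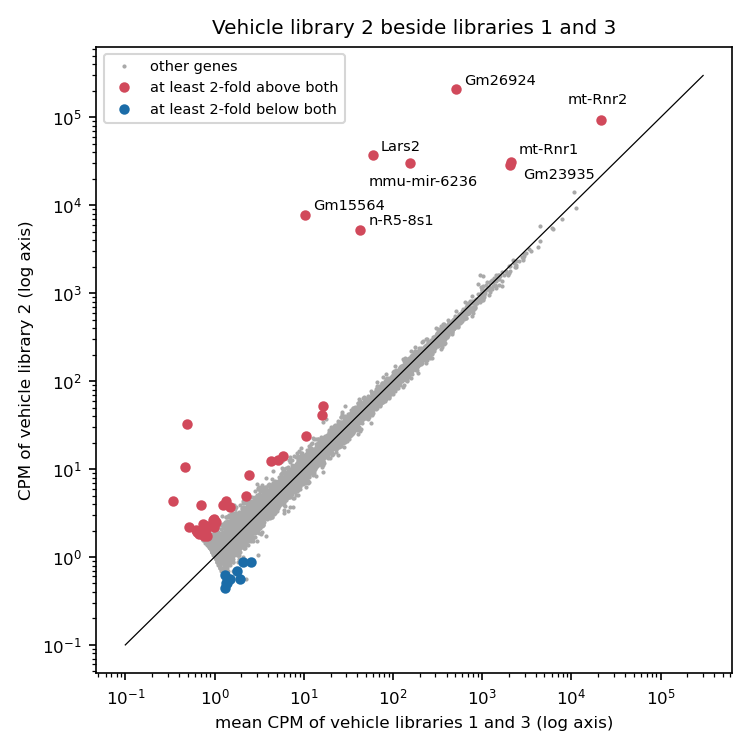
CPM of vehicle library 2 against the mean CPM of libraries 1 and 3 on log axes, 1 point per gene at a mean of 1 CPM or more, with the line of equal levels. Of the genes at least 2-fold above both libraries, the 8 at 1000 CPM or more in library 2 are ribosomal-RNA-like and related genes. The other 31, and the 9 genes at least 2-fold below both, lie at lower levels.

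With those 8 genes set aside, the libraries resembled each other. The fewest genes that together held 50% of gene reads numbered 908, 244 and 910 with all genes, and 963, 1010 and 974 without the 8. Protein-coding genes then took 95.7%, 95.2% and 96.2% of the reads. The TMM factor, which discounts such genes, was 0.959, 0.700 and 0.961.

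The ganglion expressed a broad transcriptome at these depths. Of 38926 gene rows, 24399 had a read in any vehicle library, 19780 in all 3, and 14527 in none. A total of 14343 genes were at 1 CPM or more in all 3 libraries, and 13205 of these were protein-coding. By mean level, 10112 genes reached 10 CPM, 2327 reached 100 CPM and 94 reached 1000 CPM. The 13434 nuclear protein-coding genes at a mean of 1 CPM or more had a median of 5.70 CPM per kilobase, with the 90th percentile at 32.7 and the 99th at 157.7, and these 3 marks are used as a yardstick below.

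Per kilobase, the top of the ranking belonged to neuronal cytoskeleton. Nefl, the light neurofilament subunit, ranked 1 at 5636, 5493 and 6389 CPM (1728 ± 142 CPM per kilobase, SD, n = 3). Sncg, which encodes gamma-synuclein, followed at 1124, 1329 and 1119 CPM (1397 ± 141 per kilobase). Tubb3, the neuronal beta-tubulin, was at 2177, 2193 and 2341 CPM (1198 ± 48.5 per kilobase). The values of Nefl and Sncg lie outside each other's SD, as do those of Sncg and Tubb3. Lars2 held rank 4 through library 2 alone, and at its levels in libraries 1 and 3 it would not be near the top.

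Below these came Uchl1, a neuronal ubiquitin hydrolase (907 ± 71.6 CPM per kilobase), Apoe, the lipid carrier made by satellite glia and macrophages (859 ± 70.4), and Prph, the peripheral neurofilament-like protein peripherin (789 ± 47.2). Calca, which encodes CGRP alpha, ranked 10 at 1248, 1294 and 1222 CPM (745 ± 21.6 per kilobase). It was the only neuropeptide among the top 20. The calmodulin gene Calm2 (687 ± 11.1), the tubulin gene Tuba1a (724 ± 39.1) and the chaperone gene Hsp90ab1 (676 ± 26.9) followed, and their SDs overlap. Map1b, a microtubule-associated protein of axons, was lower in library 2 than in both others (11544, 9236 and 11059 CPM, 670 ± 76.8 per kilobase).

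**Figure D2:**
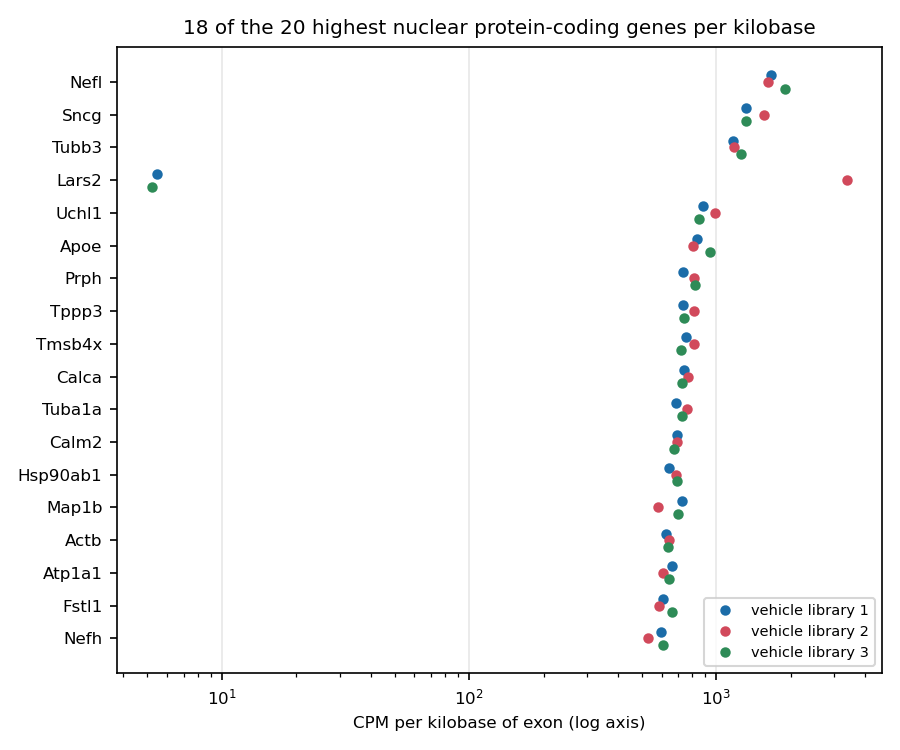
Of the 20 nuclear protein-coding genes with the highest mean level, 18, as CPM per kilobase of exon on a log axis, 1 point per vehicle library. In 17 of the 18 genes the libraries lie close together, from Nefl at 1728 to Nefh at 578 per kilobase on average, while Lars2 reaches its place only through library 2.

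Markers of neurons as a class were abundant. All 26 genes of the neuron structure list were at a mean of 1 CPM or more, and 22 of the 26 lay above the 90th percentile per kilobase. The medium and heavy neurofilaments Nefm (393 ± 23.2 CPM per kilobase) and Nefh (578 ± 41.0) stood below Nefl, whose level was 3.92 to 4.79 times that of Nefm and 2.79 to 3.12 times that of Nefh within each library. The annotated spans of Nefl (chr14:68083863-68089095, plus strand) and Nefm (chr14:68082590-68124846, minus strand) overlap on opposite strands, and the strand setting of the counting is not given, so these reads may not be fully separable. The lowest member was Ina, the internexin filament of central neurons (8.32 ± 0.689).

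The promoter of Prph, the gene whose protein marks small peripheral neurons, is shown because it alone among the top 20 held a TATA box in the window searched. The motif TATAAA was sought on the strand of the gene, starting 40 to 20 bases before the annotated start. Of the top 20 genes, 11 had a promoter in the RefSeq table (GRCm38.p6) and 1 held the motif, against 124 of 10540 protein-coding genes at a mean of 1 CPM or more (1.18%), 327 of 5779 below that level (5.66%) and 600 of all 27025 promoters (2.22%). The 100 bases before the start of Prph, at chr15:99055074-99055173 on the plus strand, carry it 31 bases before the start, in capitals.
Prph: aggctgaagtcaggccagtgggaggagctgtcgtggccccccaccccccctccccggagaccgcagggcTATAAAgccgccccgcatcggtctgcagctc
The count of 1 of 11 is too small to be set against those shares.

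Markers of peptide-containing nociceptors spanned a wide range. Of 15 listed genes, all were at a mean of 1 CPM or more and 6 were above the 90th percentile per kilobase. Within each library Calca was 6.60 to 7.94 times Calcb, its neighbour on chromosome 7 that encodes CGRP beta (129, 147 and 115 CPM, 103 ± 12.5 per kilobase). Calca lies at chr7:114631478-114636357 on the minus strand and Calcb at chr7:114718643-114723365 on the plus strand. Tac1, the gene for substance P, was at 211, 215 and 203 CPM, and Calca exceeded it 12.0 to 12.2 times per kilobase. That ratio was the steadiest of those computed between peptides, with an SD of 0.112 around a mean of 12.1.

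Other peptides were lower or at the floor. Nmb, which encodes neuromedin B, reached 106 ± 6.38 CPM per kilobase, beside Calcb. Adcyap1, the gene for PACAP, was at 20.1 ± 0.381, the itch-related natriuretic peptide Nppb at 10.8 ± 2.30 and galanin (Gal) at 9.38 ± 1.09. Of the 23 listed peptide genes, 13 were at a mean of 1 CPM or more and 6 (Npy, Crh, Ucn, Grp, Trh and Vip) were at or under the floor in all 3 libraries. Npy and Vip, both known to be induced in these neurons by nerve injury, were thus not detectable at this depth.

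Markers of non-peptidergic and itch neurons were all detected, 20 of 20 at a mean of 1 CPM or more. Mrgprd, the receptor that marks polymodal skin nociceptors, was at 200, 177 and 226 CPM (63.9 ± 7.77 per kilobase). P2rx3, an ATP-gated channel of the same neurons, was at 175, 175 and 168 CPM (61.9 ± 1.49 per kilobase). The 2 genes did not differ beyond their spread, though Mrgprd varied more between libraries, with library 3 highest and library 2 lowest. The receptors of itch neurons were lower, with Mrgprx1 at 11.3 ± 0.858, Mrgpra3 at 8.11 ± 0.678 and the interleukin receptor Il31ra at 4.63 ± 0.172 CPM per kilobase. Genes of the Mrgpr family have near-identical copies, so their counts are uncertain.

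Genes of unmyelinated touch and cold neurons and of large myelinated neurons came next. Th, tyrosine hydroxylase, which marks C-fibre low-threshold mechanoreceptors in this ganglion, was at 88.1, 88.5 and 82.4 CPM (36.5 ± 1.45 per kilobase). Pvalb, the calcium buffer parvalbumin of position-sense neurons, was at 69.3, 74.5 and 69.0 CPM (68.2 ± 2.98 per kilobase). Runx3, the transcription factor that specifies those neurons, was at 4.24, 2.82 and 4.49 CPM (0.769 ± 0.180), low in all 3 libraries and lowest in library 2. Of the 23 proprioceptor and large touch genes at a mean of 1 CPM or more, 18 were lower in library 2 than in both others (36.6% of all genes), by a median log2 ratio of -0.19. Across all genes this ratio moves with exon length, as described with the spread below. The exon lengths of these genes are not set out, and the part of length in this difference was not tested.

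**Figure D3:**
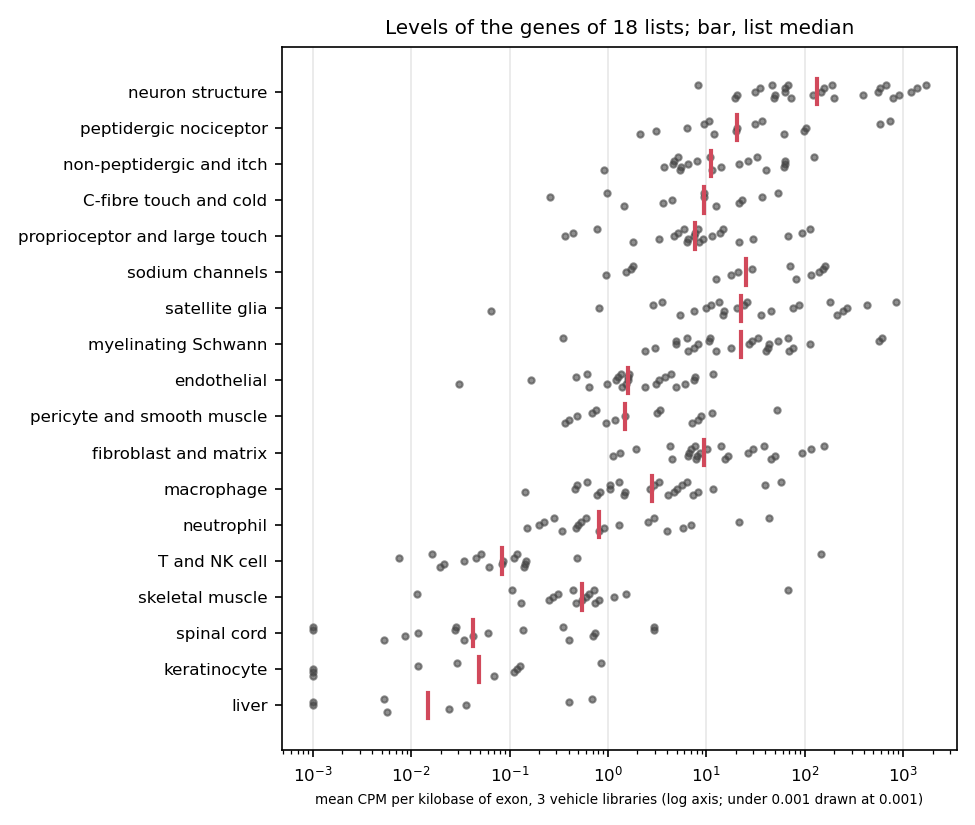
Mean CPM per kilobase over the 3 vehicle libraries for every gene of 18 marker lists on a log axis, with a bar at each list's median. Neuron structure genes sit highest (median 135), neuron subtype, sodium channel, satellite glia and myelinating Schwann lists centre between 7.72 and 25.1, and the T and NK cell, spinal cord, keratinocyte and liver lists centre under 0.1.

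The voltage-gated sodium channels were led by Scn10a, Scn7a and Scn11a, which overlapped in part. Scn10a, which encodes the nociceptor channel Nav1.8, was at 1337, 1217 and 1318 CPM (162 ± 8.12 per kilobase, rank 129). Scn7a, the sodium-sensing channel known from non-myelinating Schwann cells, was at 1240, 1123 and 1007 CPM (153 ± 15.8). Scn11a, the gene of Nav1.9, was at 872, 791 and 818 CPM (139 ± 6.97). The SDs of Scn10a and Scn7a overlap and so do those of Scn7a and Scn11a, whereas Scn10a exceeded Scn11a 1.14 to 1.20 times in every library.

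Scn9a, the gene of Nav1.7, followed at 1148, 1005 and 1014 CPM (82.7 ± 6.29 per kilobase), and Scn10a exceeded it 1.87 to 2.09 times. The beta subunit Scn4b (71.1 ± 11.2) lay below Scn9a, and their SDs overlap. Channels typical of large and central axons were lower, with Scn1a at 28.9 ± 1.75 and Scn8a, the node of Ranvier channel Nav1.6, at 21.2 ± 3.34. Scn10a (chr9:119608456-119719322) and Scn11a (chr9:119753759-119825456) are both on the minus strand. The lowest member was Scn3a, mainly a channel of the embryo, at 0.960 ± 0.0873.

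Library 2 was lowest or level across this family. In 12 of 14 sodium channel genes it lay below both other libraries (36.6% of all genes), and in 0 above both (37.7% of all genes), with a median log2 ratio of -0.13 to the mean of libraries 1 and 3. Beside the same shares of all genes, potassium and HCN channels gave 24 of 33 below and 2 above (median -0.18), and calcium channels 11 of 15 below and 1 above (median -0.13). None of the channel genes was 2-fold lower. The shift was not particular to channels. Neurotrophic receptors gave 14 of 16 below and 2 above (median -0.20), and sensory identity factors 15 of 25 below and 4 above (median -0.12).

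Among potassium channels, Kcna1, a subunit of axonal and juxtaparanodal channels, was highest at 836, 706 and 844 CPM (166 ± 16.2 per kilobase), level with Scn10a within the SDs. Kcnd1 (38.8 ± 2.95), the leak channel Kcnk1 (35.2 ± 1.08), the pacemaker channel Hcn2 (32.3 ± 1.06) and Kcna6 (31.0 ± 3.44) formed the next group and overlapped in part. Kcnd2, a subunit of the A-type current, was lowest at 0.867 ± 0.0479. Of the 33 genes all were at a mean of 1 CPM or more.

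Calcium channel transcripts were led by the beta subunit Cacnb3 (61.2 ± 2.32 CPM per kilobase) and by Cacna2d1, the subunit that binds gabapentin, at 475, 436 and 419 CPM (35.7 ± 2.29 per kilobase). Cacna2d1 exceeded its relative Cacna2d2 6.62 to 7.50 times in each library. Cacna1b, the pore of N-type channels that drive transmitter release, was at 24.0 ± 2.32 and the T-type channel Cacna1h at 8.30 ± 1.22. Cacna2d4 was at most 0.130 CPM in any library.

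Sensors of heat, cold, irritants and force were measured in every library. Trpv1, the capsaicin and heat receptor, was at 139, 132 and 134 CPM (36.6 ± 0.991 per kilobase). Trpa1, the irritant receptor, was at 93.8, 84.4 and 84.0 CPM (20.5 ± 1.30). Trpm8, the menthol and cold receptor, was at 61.2, 64.3 and 54.7 CPM (12.7 ± 1.04). These 3 do not overlap in any library per kilobase, in the order Trpv1, Trpa1, Trpm8. Piezo2, the channel of light touch and position sense, was at 974, 830 and 976 CPM (54.0 ± 4.89 per kilobase), 41.9 to 55.9 times its relative Piezo1. Asic3, an acid sensor of muscle and skin afferents, was the most even of them at 62.1, 62.7 and 63.0 CPM. Asic4 and Trpv3, a channel of keratinocytes, were the lowest at 0.0425 and 0.133 CPM per kilobase.

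Receptors for growth factors were abundant and their ligands scarce. Ngfr, the low-affinity neurotrophin receptor p75, reached 143 ± 18.2 CPM per kilobase, Lifr, the leukaemia inhibitory factor receptor, 135 ± 16.1, and Ret, the signalling receptor for the GDNF family, 125 ± 8.29. Their SDs overlap. Ntrk3, the receptor for neurotrophin-3, was lower at 4.72 ± 0.491 per kilobase (157, 128 and 142 CPM). The exon length of Ntrk3 joins all its isoforms, truncated ones included, which lowers its value per kilobase. Of 13 ligand genes 5 reached a mean of 1 CPM, led by Nrg1 (6.81 ± 0.496), a Schwann cell factor, and Bdnf (6.54 ± 0.239). Ntf5 and Pspn were at or under the floor in all 3 libraries.

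Receptors targeted by analgesics were led by Gabbr1, the baclofen receptor subunit, at 67.8 ± 4.83 CPM per kilobase, and Htr3a, a serotonin-gated channel, at 59.5 ± 2.08. The opioid receptors were lower, with Oprl1 at 6.88 ± 0.549, Oprm1, the morphine receptor, at 6.51 ± 0.893, Oprd1 at 4.21 ± 1.19 and Oprk1 at 0.431 ± 0.0526. Oprd1 was at 14.9, 13.5 and 22.4 CPM, with library 3 above the others. Bdkrb1, the bradykinin receptor that is induced in inflammation, had 0 counts in all 3 libraries, whereas Bdkrb2 was at 2.02, 2.19 and 2.05 CPM.

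Transcription factors of sensory neuron identity remained expressed in these adult ganglia, 25 of 28 at a mean of 1 CPM or more. Isl2 was highest at 167, 181 and 183 CPM (80.7 ± 4.01 per kilobase). Prdm12, the regulator required for nociceptors, was at 87.7, 86.3 and 97.0 CPM (36.6 ± 2.36). Pou4f1, the Brn3a factor of nearly all sensory neurons, was at 108, 110 and 123 CPM (24.3 ± 1.77) and exceeded Pou4f2 4.58 to 5.63 times. Neurog1 and Neurog2, which start the lineage in the embryo, were at most 0.501 and 0.228 CPM.

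Hox genes, which record position along the body axis, gave a sharp lower edge. Of 38 genes found, 25 were at a mean of 1 CPM or more and 9 were at or under the floor in all 3 libraries. Hoxa9 was at 44.9, 44.4 and 44.9 CPM, and Hoxa10 at 22.3, 25.9 and 22.6 CPM. Hoxa11, the next gene of the cluster, was at 0.0750, 0.188 and 0.163 CPM, which is at or near the floor. Hoxa10 lies at chr6:52231197-52240854 and Hoxa11 at chr6:52242106-52245810, both on the minus strand. In the D cluster Hoxd8 was at 26.5, 26.3 and 26.7 CPM and Hoxd9 at 7.76, 8.02 and 7.77 CPM, against 0.15, 0.438 and 0.260 CPM for Hoxd10. In the C cluster Hoxc10 was at 2.81, 3.70 and 3.32 CPM and Hoxc11 at most 0.0325 CPM. Hoxd1, although at the other end of its cluster, was at 17.4, 16.8 and 17.6 CPM, and Hoxb1 had 0 counts. These genes lie close together and overlap antisense transcripts, so with the strand setting not given their reads cannot be fully told from those of neighbours.

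**Figure D4:**
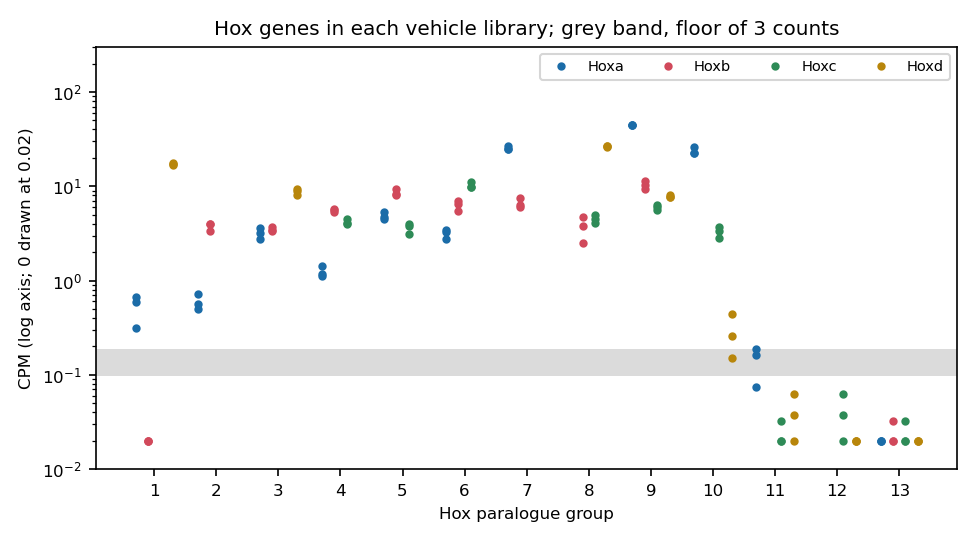
CPM of the Hox genes on a log axis by paralogue group, 1 point per vehicle library, coloured by cluster, with the floor of 3 counts as a grey band. Genes of paralogue groups 3 to 9 lie above 1 CPM in every library, group 10 splits between Hoxa10 and Hoxc10 above and Hoxd10 near the band, and groups 11 to 13 lie in or below it.

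Glial markers were abundant, at lower levels than the neuron structure genes. Of 24 satellite glia genes, 23 were at a mean of 1 CPM or more and 10 lay above the 90th percentile, and the median over the list was 22.4 CPM per kilobase, against 135 for neuron structure. After Apoe came the calcium-binding S100b (433 ± 14.9 CPM per kilobase), the lipid carrier Apod (267 ± 35.2) and Fabp7, the fatty-acid-binding protein that marks satellite glia, at 314, 319 and 295 CPM (247 ± 10.1). Kcnj10, their potassium-buffering channel, was at 11.1 ± 0.909 and the gap junction protein Gja1 at 3.56 ± 0.117. The summed neuron structure level per kilobase was 3.66, 3.70 and 3.66 times the summed satellite glia level, the same to within 0.0249 (SD). In such tissue samples fewer cells of a type and less RNA per cell cannot be told apart.

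Among myelin genes Pmp22, a protein of compact peripheral myelin, was at 1205, 1406 and 1400 CPM (568 ± 48.6 per kilobase), and Mbp, myelin basic protein, at 876, 956 and 1076 CPM (114 ± 11.8). Library 1 was lowest for both. The Mbp model joins the exons of many isoforms, which lowers its value per kilobase. Across the myelinating Schwann list library 3 exceeded library 1 in 26 of 26 genes, against 50.6% of all genes, with a median log2 ratio of 0.22. The ratio of summed neuron structure to myelinating Schwann level was 5.62, 4.93 and 4.88. Egr2, the transcription factor of myelination, was at 9.22, 10.4 and 11.3 CPM, in the same order.

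Vessel markers were low and connective tissue markers moderate. Of 24 endothelial genes, 23 reached a mean of 1 CPM, and the median over the list was 1.60 CPM per kilobase. The glucose transporter Slc2a1 was highest (11.7 ± 0.415), followed by the lipid transporter Mfsd2a (7.74 ± 0.754) and by Egfl7 (7.45 ± 0.378). Pecam1, the adhesion protein CD31, was at 8.44, 8.02 and 13.6 CPM, and Cldn5, a tight junction protein of barrier vessels, at 7.08, 8.14 and 10.8 CPM. Library 3 exceeded library 1 in 19 of the 23 genes (median log2 ratio 0.31), against 50.6% of all genes. Library 2 was below both in 17 of 23 (median -0.22), against 36.6% of all genes. Prox1, the lymphatic regulator, was at most 0.438 CPM.

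Rgs5, a pericyte gene, stood apart in its list at 251, 227 and 238 CPM (52.5 ± 2.66 per kilobase), far above Pdgfrb (8.33 ± 0.208) and Acta2, smooth muscle actin (3.17 ± 0.183). Matrix genes were led by Sparc (157 ± 6.07), Gsn (117 ± 4.99) and the proteoglycan Dcn (93.7 ± 11.9), with the fibrillar collagens Col3a1 (49.9 ± 1.85), Col1a1 (45.5 ± 3.12) and Col1a2 (38.3 ± 1.58) below. In 15 of 24 matrix genes library 2 was above both others (37.7% of all genes) and in 1 below both (36.6%), by a median log2 ratio of 0.08.

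Genes of the meninges and perineurium were present and differed between pools. Ptgds, a prostaglandin synthase of the arachnoid, was at 57.0 ± 4.86 CPM per kilobase and Cdh1, E-cadherin, at 40.5 ± 1.99. Slc47a1, an organic cation exporter, was at 21.2, 17.0 and 10.2 CPM. Igf2, a growth factor of meningeal cells, was at 69.2, 51.5 and 34.8 CPM. Both were highest in library 1 and lowest in library 3. Library 3 was above library 1 in 4 of the 23 listed genes at a mean of 1 CPM or more, against 50.6% of all genes. How much capsule or root each pool held was not recorded in the labels, and its part in these values was not tested.

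Resident immune cells were visible through macrophage genes. Lyz2, lysozyme, was at 48.1, 63.7 and 45.8 CPM (39.9 ± 7.40 per kilobase). The complement genes C1qa (11.7 ± 2.28), C1qb (8.21 ± 0.597) and C1qc (5.68 ± 1.23), the mannose receptor Mrc1 (4.99 ± 0.863) and the growth factor receptor Csf1r (4.68 ± 0.736) followed. Csf1r was at 23.6, 31.8 and 25.7 CPM, highest in library 2. Library 2 was above both others in 21 of 23 macrophage genes and in 7 of 7 MHC class II genes at a mean of 1 CPM or more, against 37.7% of all genes, with median log2 ratios of 0.45 and 0.45. Cd74, the class II invariant chain, was at 46.1, 64.0 and 47.4 CPM. With scaling by library totals these medians moved to -0.01 and 0.00, and the median of all genes to -0.45, a shift that is the same for every gene by construction. The sign of both list medians thus depends on the scaling, whereas their distance above the median of all genes does not.

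Neutrophil genes were low and uneven. S100a9 was at 19.1, 34.3 and 14.01 CPM and S100a8, its partner in calprotectin, at 11.4, 23.6 and 9.98 CPM. Ngp, a granule protein, was at 6.71, 14.1 and 5.04 CPM. All 12 neutrophil genes at a mean of 1 CPM or more were highest in library 2 (37.7% of all genes), 2 of them at least 2-fold (0.265%), and all 12 were lower in library 3 than in library 1 (49.4% of all genes), with a median log2 ratio of -0.41. The globin gene Hbb-bs was at 24.0, 29.2 and 26.6 CPM, so red cell transcripts were also highest in library 2, and the part of blood in these values was not tested.

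Lymphocytes contributed little. Of 17 T and NK cell genes, 7 were at or under the floor in all 3 libraries. Trac, the T cell receptor constant chain, was at 0.113, 0.188 and 0.0975 CPM, and Cd3e at 0.0750, 0.188 and 0.163 CPM. Thy1, which neurons express strongly, was the exception at 413, 450 and 450 CPM and is no measure of T cells here. The B cell gene Ms4a1 was at most 0.814 CPM, while Ighm, the IgM heavy chain, was at 19.2, 25.7 and 23.4 CPM. The mast cell protease Cpa3 was at 3.75, 4.82 and 3.58 CPM.

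Interferon-stimulated genes were highest in library 2 and mostly lowest in library 1. Ifit1, an antiviral RNA sensor, was at 20.6, 41.8 and 33.7 CPM. Bst2, tetherin, was at 4.91, 10.3 and 7.90 CPM, and Irf7, a regulator of the response, at 3.30, 7.71 and 5.43 CPM. Library 2 was above both others in 25 of 25 such genes (median log2 ratio 0.54, or 0.08 with scaling by library totals), against 37.7% of all genes. Library 3 was above library 1 in 23 of 25 (median 0.26), against 50.6% of all genes. The chemokine gene Cxcl9 was at 0.225, 1.88 and 1.79 CPM.

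Traces of other tissues differed between libraries. Muscle genes were highest in library 2 in 11 of 11 genes at a mean of 1 CPM or more (37.7% of all genes), and 6 of 11 were at least 2-fold above both others (0.265% of all genes). Myh1, Tnnt3, Ckm and Mylpf were under 1 CPM in libraries 1 and 3 and passed this filter only through library 2. Their place in these counts was thus partly set by the filter. Acta1, skeletal actin, was at 0.825, 4.38 and 1.85 CPM, Myh4, a fast myosin, at 3.45, 8.52 and 1.46 CPM, and Ttn, titin, at 16.7, 41.1 and 15.0 CPM. Pvalb, a member of this list as well as a neuron gene, was at 68.2 per kilobase and the other members under 1.6. The part of muscle RNA in other values was not tested. In contrast, Gfap, an intermediate filament of astrocytes and some Schwann cells, was at 0.600, 0.564 and 3.97 CPM and Mobp, a myelin protein of oligodendrocytes, at 2.02, 1.06 and 4.10 CPM, both highest in library 3.

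Genes of the spinal cord ranged from low levels to no counts. Of 17 listed genes, 7 were at a mean of 1 CPM or more. Aqp4, a water channel of astrocytes, was at 18.7, 17.6 and 19.2 CPM, the folate enzyme gene Aldh1l1 at 12.8, 12.1 and 15.15 CPM, and the glutamate transporter gene Slc1a2 at 8.997, 6.33 and 12.4 CPM. Slc5a7, the choline transporter of cholinergic neurons, was at 5.17, 3.76 and 3.51 CPM. Mnx1 and Lhx1 had 0 counts, Chat and Olig2 were at most 0.0750 and 0.0650 CPM, and 5 of the 17 genes were at or under the floor in all 3 libraries. Library 3 exceeded library 1 in 6 of the 7 genes at a mean of 1 CPM or more (median log2 ratio 0.46), against 50.6% of all genes. The skin keratin Krt5 had 0 counts in all 3 libraries, and the liver genes Alb and Ttr were at most 0.0375 and 0.520 CPM. The Y-linked genes Ddx3y (95.9, 95.1 and 91.6 CPM) and Eif2s3y (43.4, 43.2 and 36.6 CPM) were expressed in all 3 libraries and Xist was at most 0.188 CPM. The labels give the mice as male.

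Genes through which cells take up and handle platinum drugs were set out because the vehicle libraries are the reference for both drugs. Slc31a1, the copper transporter CTR1 that also carries platinum, was at 41.9, 38.3 and 40.1 CPM (9.36 ± 0.421 per kilobase). Slc22a2, the organic cation transporter OCT2, was at 0.487, 0.689 and 0.650 CPM (0.245 ± 0.0431). Slc31a1 exceeded Slc22a2 32.2 to 49.8 times per kilobase. Abcc2, a glutathione-conjugate pump, was at or under the floor in all 3 libraries. The copper chaperone Atox1 (99.8 ± 11.6), the metallothionein Mt3 (67.6 ± 3.67) and glutathione reductase Gsr (33.2 ± 1.47) were the highest of the 33 genes, and the exporter Abcg2 (13.5 ± 0.439) the highest pump.

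All 37 genes of DNA repair and the p53 response were at a mean of 1 CPM or more. Ddb1, a damage-binding subunit, was highest (57.9 ± 2.04 CPM per kilobase), followed by the p53 target Ccng1 (52.1 ± 1.37) and Parp1 (163, 149.5 and 164 CPM). Ercc1, the nuclease subunit of nucleotide excision repair, was at 14.4, 13.8 and 15.0 CPM (4.63 ± 0.194), and Trp53 at 9.86, 9.65 and 7.93 CPM (2.26 ± 0.261). Cdkn1a, the p53 target p21, was at 24.4, 30.5 and 24.5 CPM, highest in library 2. The Fanconi genes Fancd2 (0.351 ± 0.0280) and Fanca (0.218 ± 0.00390), which act at cross-links in dividing cells, were lowest.

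Genes of axon degeneration were all expressed, 18 of 18. Nmnat2, the short-lived enzyme that keeps axons alive, was at 186, 167 and 207 CPM (32.3 ± 3.40 per kilobase), and Sarm1, the NAD-consuming enzyme that executes degeneration, at 55.1, 47.7 and 62.7 CPM (9.80 ± 1.33). The 2 shared an order, library 3 highest and library 2 lowest. The nuclear relative Nmnat1 was at 3.29 ± 0.0988 and the mitochondrial Nmnat3 at 0.259 ± 0.0921. Map3k12, the injury kinase DLK, was even at 87.3, 87.2 and 91.4 CPM.

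Markers of nerve injury ranged from the floor to above the 90th percentile, and no naive ganglion stands beside them. Atf3, the factor switched on in injured neurons, was at 6.26, 5.32 and 5.43 CPM (2.63 ± 0.238 per kilobase), under the median of expressed genes. Sprr1a was at most 0.163 CPM, and Npy, Vip and Reg3b were at or under the floor in all 3 libraries. Gap43, the growth cone protein (67.0 ± 4.19), Serpina3n (58.8 ± 4.0) and Stat3 (41.3 ± 2.34) lay above the 90th percentile in these vehicle libraries. Of the 27 listed genes 20 were at a mean of 1 CPM or more, and the median log2 ratios between libraries were 0.05 (library 2 over 1 and 3) and 0.02 (library 3 over 1).

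Some genes received far fewer reads than a partner or copy. The mitochondrial genes mt-Co2, mt-Co3, mt-Atp6, mt-Atp8 and mt-Nd4l are listed at 0 in all 3 libraries, while mt-Co1, a subunit of the same enzyme as mt-Co2, was at 4104, 3909 and 4835 CPM. Rps16, a ribosomal protein gene, had 9, 10 and 10 counts against 342, 313 and 366 for its processed copy Rps16-ps2, and Rps27a was outnumbered likewise by Rps27a-ps2. Reads with multiple alignments were recorded apart from genes in these files, and the counts of genes with near-identical copies are uncertain. The other ribosomal protein genes were led by Rplp1 (224, 284 and 215 CPM), and 40 of 51 were highest in library 2 (median log2 ratio 0.18), against 37.7% of all genes. The 7 mitochondrial messenger RNAs above 1 CPM were all higher in library 3 than in library 1 (median 0.50), against 50.6% of all genes.

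Replicate spread was small for most genes and close to counting error only at low levels. The median coefficient of variation over 3 libraries was 7.32% for the 14718 genes, where counting alone would give 4.39%. It was 16.6% at 1 to 3 CPM, with 16.0% from counting, 6.91% at 10 to 30 CPM, with 4.96%, and 6.12% above 300 CPM, with 0.976%. Between pairs of libraries the median was 5.23% for 1 and 3, 6.13% for 1 and 2 and 6.87% for 2 and 3. The most even pair was thus libraries 1 and 3 at every level examined. Library 2 had the smallest scaled size, which raises counting error in its pairs, and counting error was not computed for each pair.

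The common biological coefficient of variation estimated by edgeR was 0.108 over the 3 vehicle libraries, 0.0653 over libraries 1 and 3, and 0.0684 and 0.0717 in the cisplatin and oxaliplatin groups. Without the 8 genes it was 0.0780 over the 3 vehicle libraries. Across genes, log2 CPM correlated at Pearson's r of 0.995 between libraries 1 and 3, 0.990 between 1 and 2 and 0.989 between 2 and 3, as a description over genes that share each library's depth. Libraries 1 and 3 were within 1.5-fold for 97.6% of genes, libraries 1 and 2 for 96.3% and libraries 2 and 3 for 95.4%. Genes at least 2-fold apart numbered 62, 128 and 139 in the same order.

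Differences between libraries moved with gene length and GC content. The log2 ratio of library 2 to libraries 1 and 3 had a Spearman's rho of -0.384 with exon length across 13434 protein-coding genes, and its median was 0.11 in the 20% shortest genes and -0.09 in the 20% longest. Its rho with GC content was -0.01. The log2 ratio of library 3 to library 1 behaved the other way, with a rho of 0.369 with GC content (medians -0.10 in the 20% of genes lowest in GC and 0.07 in the 20% highest) and -0.05 with length. Channel genes were mostly lower in library 2, and myelin genes higher in library 3 than in library 1. The lengths and GC content of these lists are not set out here. Ribosomal protein genes, most of them short, were mostly highest in library 2. The part of these trends in the list values was not tested.

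Among genes at a mean of 10 CPM or more, with predicted-gene symbols left out, the lowest in library 2 relative to the nearest other library were Palm2 (24.6, 14.4 and 24.5 CPM), Tnfrsf11a (32.2, 21.9 and 32.4 CPM) and the microtubule gene Mtus2 (30.5, 20.8 and 30.5 CPM). Libraries 1 and 3 were nearly equal in these genes. No gene at that level was 2-fold lower. The highest after the rRNA-like group were Ttn, the mitochondrial gene mt-Nd6 (9.52, 52.8 and 23.5 CPM), S100a8, S100a9 and Tpt1 (12.5, 22.4 and 12.9 CPM), a gene with many processed copies. Between libraries 1 and 3 the largest drops towards library 3 at that level were in the small nucleolar RNAs Snord17 (16.4, 12.5 and 6.66 CPM) and Snora74a (25.6, 17.7 and 11.3 CPM), Slc47a1, the small cytoplasmic RNA Rny3 (47.1, 39.5 and 23.4 CPM) and Igf2. In the other direction they were the miR-6236 gene, mt-Nd6 and n-R5-8s1, all highest in library 2, followed by Ifit1, Pecam1 and the chemokine gene Cxcl12 (15.7, 16.6 and 23.7 CPM).

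**Figure D5:**
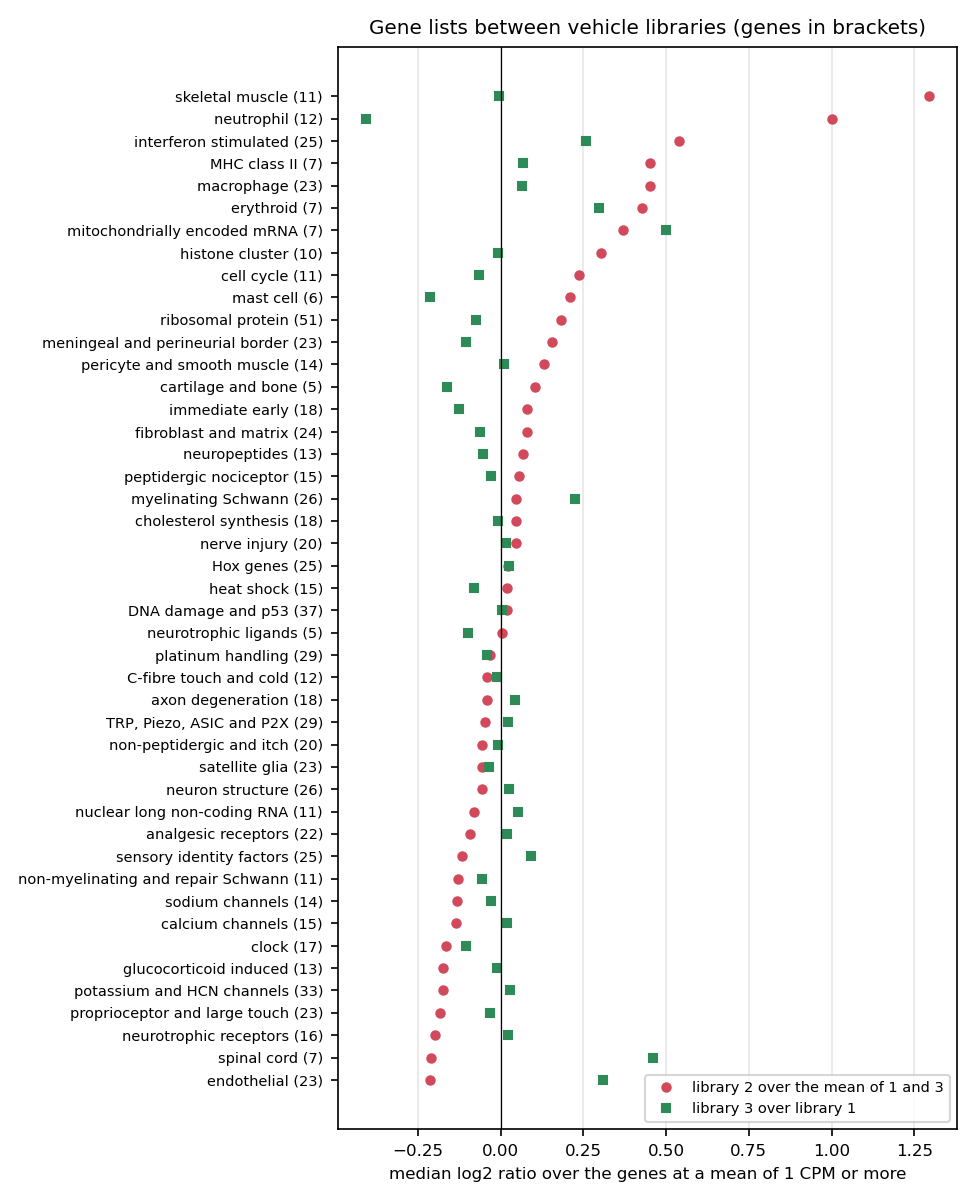
Median log2 ratio of 45 of the 53 gene lists between vehicle libraries, with the number of genes at a mean of 1 CPM or more in brackets, circles for library 2 over the mean of libraries 1 and 3 and squares for library 3 over library 1. The rRNA-like (6.25) and mitochondrial rRNA (2.99) lists and lists with fewer than 5 such genes are not drawn. Of the lists drawn, skeletal muscle (1.29), neutrophil (1.0) and interferon-stimulated genes (0.54) lie furthest right for library 2, and mitochondrially encoded mRNA (0.50) and spinal cord genes (0.46) furthest right for library 3.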

How the data were processed

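Whole ganglia were profiled by stranded total RNA sequencing with single-end reads of 75 nucleotides, per the labels. The deposited values are counts of reads per gene symbol, not normalized by the authors, made with STAR, SAMtools and HTSeq on mm10 (GRCm38), per the submitters' processing notes. Their versions, the annotation and the strand setting are not given in the sources. Rows for unassigned reads held 48.8%, 74.5% and 45.6% of recorded reads in vehicle libraries 1 to 3 and were left out. Each library is 1 pool of 4 animals, so the spread given is between pools.

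Scaling factors came from TMM in edgeR 4.0.16 (limma 3.58.1, R 4.3.3) on 17348 genes over all 9 libraries. Exon lengths, biotypes and positions came from GENCODE M21 (GRCm38), which matched 96.1% of symbols, 1744 of them through RefSeq synonyms. Tables were computed with Python 3.11.15, pandas 2.3.3 and scipy 1.17.1. No group was compared with another, so no p-value is given. The spread estimate and the 2-fold rule were run on simulated counts that gave every gene the same spread, as a check of the calculation only. Alternatives were other scalings, other filters on low counts, a 1.5-fold rule, removal of mitochondrial and rRNA-like genes before scaling, longest transcript lengths and leaving out each library.

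The members and the 53 gene lists (945 of 960 genes found) were chosen with earlier results of these data known. Named genes are the 20 highest nuclear protein-coding genes per kilobase, up to 6 highest and the lowest or floor-level members of each list, the 10 largest folds of library 2 in each direction and the 10 largest differences between libraries 1 and 3 each way (mean of 10 CPM or more, no predicted-gene symbols), 17 genes of neuropathy and nociception, and the 10 highest counts of each library. Any other gene named was chosen after its values were seen. Some genes that the rule names are not reported here.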

Additional observations from a re-analysis of the deposited data

How the results depend on the processing

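The number of genes at 1 CPM or more in all 3 libraries lay between 14051 and 14396 under the other scalings and between 14433 and 14474 with 1 library left out. The median coefficient of variation was 18.5% with library totals alone, 12.99% with no filter beyond 1 count, 6.13% at a mean of 10 CPM or more, and 5.23 to 6.87% with 1 library left out. The lowest of these was without library 2. Genes at least 2-fold higher in library 2 numbered 13 with library totals alone, 439 with no filter and 12 at a mean of 10 CPM or more, and 203 passed at 1.5-fold. Genes at least 2-fold lower in library 2 numbered 87 with library totals alone, 5 with TMM over the 3 vehicle libraries only, 1333 with no filter and 0 at a mean of 10 CPM or more, and 63 passed at 1.5-fold. These counts kept genes with no reads in library 2 but left out those with none in library 1 or 3. With no filter they thus favour lower genes by construction. Library totals alone moved the median log2 ratio of library 2 over all genes to -0.45, and with it 42 of 46 list medians. Factors by median ratio moved 0 of the 46 list medians and 0 of 17 gene levels beyond 1 SD, whereas TMM over the 3 vehicle libraries only moved 16 of the 17 levels, since it changes the common scale of all 3. At 3 counts, differences under the floor were not detectable. No paired analysis was possible because only 1 group was described and no test was made.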

Other observations

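Genes of cholesterol synthesis, which glia use to build membrane, were among the most even of the lists in these libraries. All 18 were at a mean of 1 CPM or more, their median level was 30.9 CPM per kilobase, and their median coefficient of variation was 4.68%, against 7.32% for all genes. The value for all genes is raised by low genes. It was 5.56% for genes at 30 to 100 CPM and 5.66% at 100 to 300 CPM, so the margin among abundant genes was small. Hmgcs1 was at 973, 999 and 949 CPM and Sqle at 268, 275 and 268 CPM. Heat shock genes had a median coefficient of variation of 5.21%, near that of abundant genes, with Hspa8 at 990, 891 and 939 CPM and the inducible Hspa1b at 16.0, 15.4 and 11.5 CPM.

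Immediate early genes, which respond within minutes to stimulation or handling, were less even, with a median coefficient of variation of 22.3%. Of the 18 genes at a mean of 1 CPM or more, 9 (50%) were highest and 6 (33.3%) lowest in library 2, against 37.7% and 36.6% of all genes. The share lowest was thus near that of all genes, and the share highest somewhat above it. Fos was at 4.46, 12.5 and 4.16 CPM, Egr1 at 11.1, 16.0 and 6.47 CPM and Junb at 16.2, 22.9 and 14.8 CPM, highest in library 2. Jun was even at 81.8, 77.5 and 78.8 CPM, and Fosl2 was highest in library 1 (19.5, 13.8 and 13.9 CPM). Clock genes were lower in library 2 than in both others in 11 of 17 genes (36.6% of all genes), with Per1 at 22.9, 15.4 and 18.2 CPM and Dbp level at 7.16, 7.33 and 7.35 CPM. Genes induced by glucocorticoids were lower in library 2 in 9 of 13 (36.6% of all genes), among them Fkbp5 (52.6, 42.4 and 52.2 CPM). Replication-linked histone genes were highest in library 2 in 9 of 10 (37.7% of all genes), and the proliferation marker Mki67 was at 12.5, 17.5 and 11.7 CPM.

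Among long non-coding RNAs, Malat1, a nuclear RNA, was at 7383, 6916 and 8205 CPM, and the imprinted Meg3 at 534, 513 and 730 CPM, highest in library 3. Dio2, the thyroid hormone activating enzyme, was the only gene at least 2-fold higher in library 1 than in both others (8.10, 3.95 and 3.80 CPM). The platelet genes Ppbp (0.787, 3.95 and 2.50 CPM) and Tubb1 (0.337, 1.63 and 1.17 CPM) were at least 2-fold lower in library 1 than in both others.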
